A study of Mus musculus with 6 samples.

Results

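P6 is the stromal fraction of the mouse omentum that was sorted as CD45-, low for CD140a and positive for aldehyde dehydrogenase (ALDH) activity, and it is 1 of the 6 sorted fractions in the series. Its library was set against the mean of the 5 libraries of CD140a+ cells for all 23352 gene symbols. All fractions came from wild-type (WT) C57BL/6 mice. The CD45-CD140a+ cells that carried CD105 were divided by high (P1), intermediate (P2) or low (P3) ALDH activity, and those without CD105 into a fraction of intermediate (P4) and a fraction of low (P5) activity. RNA-seq was made from 1 library of each fraction, so no value below has a replicate and no p-value was computed. The age of the mice and whether mice were pooled are not given in the sources used here. CD140a is the protein product of *Pdgfra*, a receptor for platelet-derived growth factor that is widely used to mark fibroblasts, and CD105 is the product of *Eng*. Because these proteins and ALDH activity set the gates, the levels of the corresponding RNAs are descriptions of the sort.

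The omentum is a fold of peritoneum that carries fat and small lymphoid clusters called milky spots. Its surface is covered by mesothelium, a sheet of flat cells that arises from mesoderm yet holds keratin filaments, tight junctions, apical microvilli and a basement membrane as an epithelium does. Mesothelial cells secrete lubricating and antimicrobial fluid and line the peritoneal cavity, whereas the fibroblasts below them make the collagen-rich stroma. Fibroblasts are also a source of milky spot chemokines, as are endothelial cells for *Cxcl12*. In the fractions sorted here, ratios between bulk libraries do not separate fewer cells of a type from less RNA per cell.

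The values are FPKM (fragment counts scaled to the exon length of the gene and to the mapped reads of the library). The sum over all genes ranged from 384939 (P6) to 407807 (P1), and from 11340 genes in P1 to 12043 genes in P6 reached 1 FPKM. Depth was estimated from the steps between low values at 37.0 M reads in P6 and 53.4 to 61.8 M reads in the other libraries, so P6 was the shallowest by this estimate. The estimate is approximate, because 54.2% to 58.9% of the low values lay within 0.05 of a whole read. Across the 12625 genes tested, the Spearman correlation with P6 was 0.789, 0.806 and 0.819 for the CD105+ fractions P1 to P3, and it was 0.896 and 0.893 for P4 and P5. These correlations are across genes, which are not independent replicates. The CD105- fractions P4 and P5 were thus the closest to P6 by this measure. Some genes were listed at 0 in a library and at 5 FPKM or more in another (133 symbols, of which 105 were small RNAs). Such a 0 can be a failed estimate, and it is reported only as listed.

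A gene was called higher in P6 when its FPKM was at least 1 in P6 and at least 2 times the mean of P1 to P5, after 0.1 FPKM was added to both, and lower in P6 when the mean was at least 1 and the ratio was inverted. A total of 12625 genes reached 1 FPKM in P6 or in the mean and were tested. Of these, 1517 (12.0%) were higher and 1168 (9.25%) were lower in P6, and 9940 were neither. After quantile normalization, 1251 were higher and 1345 lower, so that the excess of higher genes was turned. P6 lay above every CD140a+ library in 1490 of the higher genes, and below every one in 950 of the lower genes. Without any fold limit, 38.6% of tested genes had P6 above all 5 other libraries and 25.1% had it below all of them. The larger ratios were more often downward, with 264 genes higher by at least 8 times against 409 lower by at least 8 times. Listed 0 values fell mostly on the lower side. Of the 133 symbols listed at 0 in a library and at 5 FPKM or more in another, 34 were higher and 95 lower. In P6, 114 tested genes were listed at 0. Small RNA symbols made up 33 of the higher and 93 of the lower genes. The part of these genes in the excess of large downward ratios was not tested. The ratios nearest to the limit were 1.0001 and 0.998 on the log2 scale on the higher side and 1.0009 and 0.999 on the lower side, so genes lay on both sides close to the limit. The median log2 ratio was 0.09 over the tested genes and 0 over all symbols. Log2 ratios below are of FPKM + 0.1, which understates the difference of genes with low values. A gene with a mean under 1 FPKM was tested only through P6 and could be called only higher. A gene under 1 FPKM in P6 could be called only lower. The counts given below for each list stand beside the 12.0% higher and 9.25% lower of all tested genes.

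**Figure D1:**
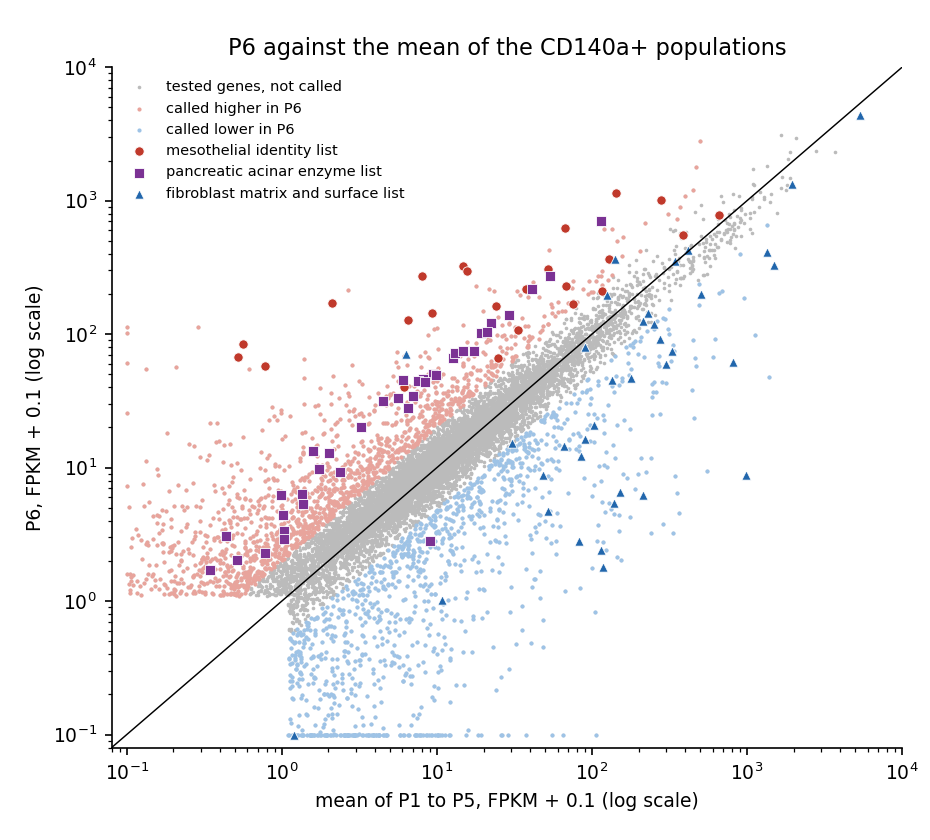
FPKM + 0.1 in P6 (vertical, log scale) against the mean of P1 to P5 (horizontal, log scale) for each tested gene, with called genes in pale red and pale blue and 3 gene lists marked. The 1517 higher genes lie above the diagonal of equal levels and the 1168 lower genes below it; most marked mesothelial and acinar genes lie above it and most fibroblast genes below it.

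The 6 markers given for P6 were all higher. Mesothelin (*Msln*), a surface glycoprotein of mesothelium, was at 0.127, 0.55, 0.164, 6.86 and 2.31 FPKM in P1 to P5 in that order and at 171 FPKM in P6. The uroplakin *Upk1b*, a membrane protein of the apical surface of some epithelia, was at 1.05, 0.743, 1.28, 43.5 and 26.6 FPKM in P1 to P5 and 324 FPKM in P6. *Wnt2b*, a secreted Wnt ligand, was at 2.17, 3.59, 1.86, 20.6 and 11.4 FPKM in P1 to P5 and 273 FPKM in P6. For these 3 genes P6 was highest, P4 and P5 came next and P1 to P3 were lowest. Fibromodulin (*Fmod*), a small proteoglycan that binds collagen fibrils, showed another order, with 1.77, 21.2, 21.3, 18.3 and 14.9 FPKM in P1 to P5 and 296 FPKM in P6. Here P1 stood apart as the lowest, and P2 to P5 were close to each other. The log2 ratios of P6 over the mean were 6.35 for *Msln*, 4.46 for *Upk1b*, 5.09 for *Wnt2b* and 4.25 for *Fmod*. Without P4 in the mean, those of *Msln*, *Upk1b* and *Wnt2b* were 7.59, 5.43 and 5.82, respectively.

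Among 26 genes listed for mesothelial identity, 24 were tested, 21 were higher and none was lower, against the 12.0% of all tested genes that were higher. P6 lay above all CD140a+ libraries in 23 of them. The list includes the 6 markers given for P6, and *Krt7*, *Krt8*, *Krt18* and *Krt19* are counted again among the keratins below. It was chosen with earlier results of these data known, so its share describes P6 and is not separate support for the label. The median log2 ratio over the 25 members found was 2.72, and it depended on the comparator, at 5.71 against P1 to P3, 1.52 against P4 and P5, and 3.31 and 3.21 when P4 or P5 was left out of the mean. *Upk3b*, another uroplakin, was the most abundant of them, at 11.1, 6.78, 22.7, 383 and 289 FPKM in P1 to P5 and 1140 FPKM in P6. *Lrrn4*, a leucine-rich repeat membrane protein used as a mesothelial marker, was at 3.64, 2.4, 7.65, 135 and 110.4 FPKM in P1 to P5 and 308 FPKM in P6. In both, P4 and P5 held more than 10 times the level of P1 to P3 and less than P6. The 3 tested members that were not called were *Wt1*, *Efemp1* and *Aebp1*. *Wt1*, which encodes a transcription factor of mesothelium and the coelomic lining, had 211 FPKM in P6 and 50.3, 79.2, 106, 149 and 197 FPKM in P1 to P5, so its log2 ratio was 0.86. *Calb2*, the gene of calretinin, a marker of human mesothelium, was listed at 0 in all 6 libraries. The other member for which P6 was not the highest library was ezrin (*Ezr*), which links actin to the membrane of microvilli, at 10.1, 10.7, 24.1, 165 and 169 FPKM in P1 to P5 and 168 FPKM in P6. P4, P5 and P6 were thus close for *Ezr*, whose log2 ratio of 1.15 was 0.87 without P1 or without P2 in the mean and 0.01 against P4 and P5 alone.

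Keratins of simple epithelia had some of the largest ratios. Of 13 keratin genes listed, 9 were tested, 8 were higher and none was called lower, with a median log2 ratio of 3.21 over all 13. The mean of P1 to P5 was under 1 FPKM for *Krt7*, *Krt8*, *Krt18*, *Krt14* and *Krt15*. These were tested only through their P6 level and could not be called lower, so the share of higher keratins was partly set by the rule. *Krt7* was at 0.0811, 0.316, 0.131, 1.32 and 0.467 FPKM in P1 to P5 and 84.5 FPKM in P6. Its partner in filaments of simple epithelia, *Krt18*, was at 0.078, 0.135, 0.0412, 1.49 and 0.378 FPKM in P1 to P5 and 67.0 FPKM in P6. *Krt8* was at 0.0466, 0.0908, 0.144, 2.04 and 1.08 FPKM in P1 to P5 and 57.2 FPKM in P6. P4 was the next highest library for these 3 keratins and remained more than 25 times below P6. *Krt19* behaved differently, at 6.33, 5.33, 9.19, 197 and 116 FPKM in P1 to P5 and 619.8 FPKM in P6, so that P4 and P5 held a sizable part of the P6 level. The basal keratins *Krt14* and *Krt15* reached 1.41 and 3.72 FPKM in P6 with no more than 0.149 FPKM elsewhere, and *Krt5* was listed at 0 in all libraries.

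**Figure D2:**
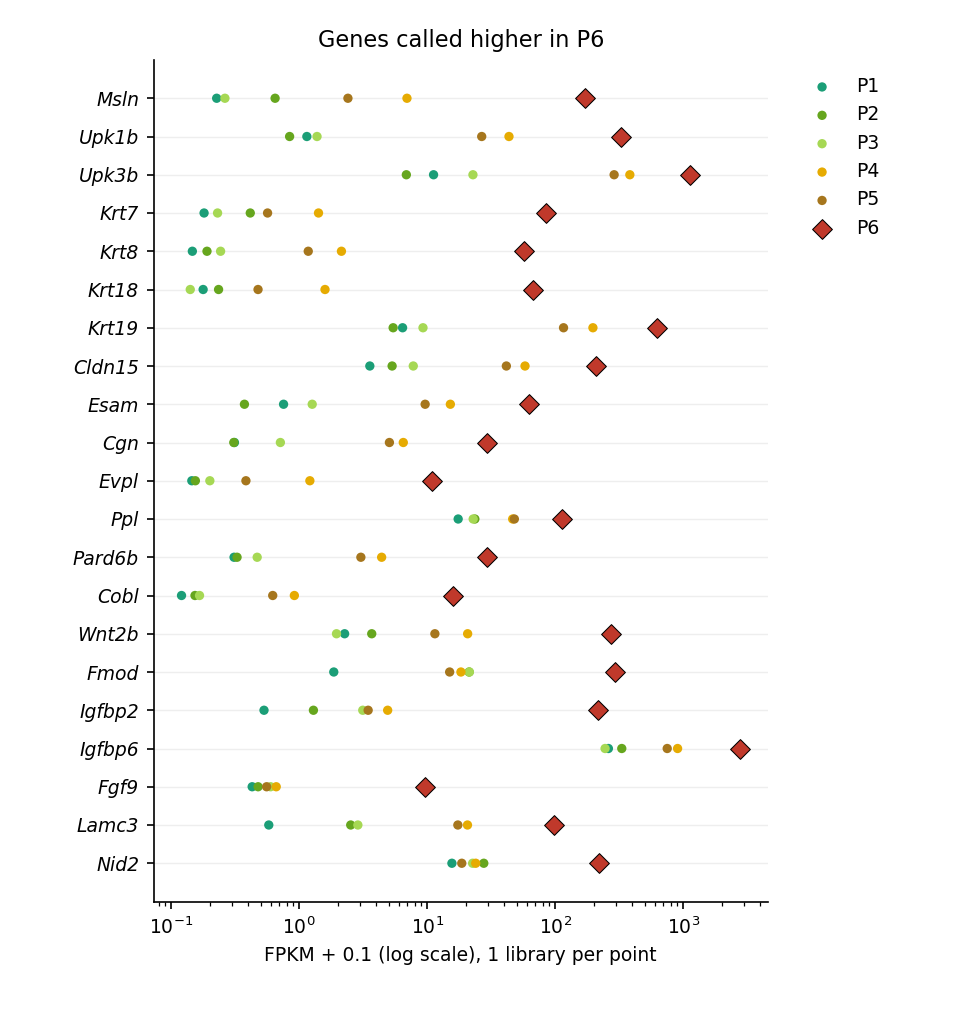
FPKM + 0.1 (horizontal, log scale) of 21 genes called higher in P6, with 1 point for each library and P6 as a red diamond. P6 is the rightmost library for every gene, and P4 and P5 lie between it and P1 to P3 for most of them.

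The bases before the start of 4 genes are shown because these genes stand for the patterns described here: *Krt7* and *Krt8* for epithelial genes that were higher in P6, *Dpt* for fibroblast genes that were lower and *Ctrb1* for pancreatic enzymes that were set apart. Each runs 5′ to 3′ on the strand of its gene and covers the 250 bases before the RefSeq start in GRCm38.p6, at chr15:101412153-101412402 (plus strand), chr15:102004343-102004592 (minus strand), chr1:164796413-164796662 (plus strand) and chr8:111691011-111691260 (minus strand), respectively. Capitals mark matches on either strand to the TATA box TATAAA, to the CCAAT box, to the GC box GGGCGG that is bound by Sp1-type factors, to CAGGTG (an E box of the kind bound by basic helix-loop-helix and zinc finger factors such as Snail), to AGATAA (a letter pattern of GATA factors) or to the AP-1 pattern TGACTCA.
Krt7: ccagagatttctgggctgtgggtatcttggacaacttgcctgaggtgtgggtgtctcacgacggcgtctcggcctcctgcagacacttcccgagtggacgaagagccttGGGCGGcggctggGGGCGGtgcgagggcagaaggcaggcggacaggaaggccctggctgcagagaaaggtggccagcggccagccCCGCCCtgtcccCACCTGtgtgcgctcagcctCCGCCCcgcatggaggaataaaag
Krt8: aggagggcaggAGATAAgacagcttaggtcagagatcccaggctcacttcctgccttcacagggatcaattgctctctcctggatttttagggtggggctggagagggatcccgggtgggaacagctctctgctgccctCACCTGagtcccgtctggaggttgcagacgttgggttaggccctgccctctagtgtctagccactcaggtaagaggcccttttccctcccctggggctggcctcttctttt
Dpt: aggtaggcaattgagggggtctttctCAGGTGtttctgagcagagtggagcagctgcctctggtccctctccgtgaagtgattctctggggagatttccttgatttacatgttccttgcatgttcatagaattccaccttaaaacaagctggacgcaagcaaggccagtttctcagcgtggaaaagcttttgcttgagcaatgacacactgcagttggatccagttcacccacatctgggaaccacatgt
Ctrb1: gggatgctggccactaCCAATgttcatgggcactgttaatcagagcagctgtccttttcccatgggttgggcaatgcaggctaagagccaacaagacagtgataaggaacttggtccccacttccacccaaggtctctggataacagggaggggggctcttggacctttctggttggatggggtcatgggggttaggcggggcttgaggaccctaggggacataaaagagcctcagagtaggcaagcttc
The upstream stretch of *Krt7* held 4 GC boxes and a single E box. That of *Krt8* held an E box and a GATA pattern, that of *Dpt* an E box, and that of *Ctrb1* a CCAAT box.

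RefSeq gave such a stretch for 9212 of the tested genes, for 1061 of the higher genes and for 754 of the lower genes, and the first entry of a gene was used where there were several. The E box was present in 14.2% of all of them, in 22.5% of the higher genes and in 13.4% of the lower genes. The GATA pattern was present in 5.74%, 8.11% and 5.97%, respectively, and the TATA box in 6.26%, 8.95% and 10.3%. The GC box was in 60.3%, 54.7% and 57.2%, the CCAAT box in 36.7%, 36.8% and 32.5% and the AP-1 pattern in 2.96%, 4.52% and 4.77%. Of the higher pancreatic enzyme genes with such a stretch, 17 of 27 held an E box and 12 held a TATA box. These are counts of letters, with no test, and matches that overlap were not treated apart.

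Genes of the junctions that seal and bind epithelial sheets were often higher. Among 28 tight junction genes, 16 were tested, 11 were higher and 1 was lower, with a median log2 ratio of 0.65 over all 28. *Cldn15*, a claudin that forms paracellular channels, was at 3.47, 5.23, 7.7, 58.1 and 41.5 FPKM in P1 to P5 and 209 FPKM in P6. The cell adhesion molecule *Esam* reached 62.0 FPKM in P6 against 0.274 to 15.1 FPKM, with its highest other level in P4. The scaffold *Tjp1*, which is present in many cell types, differed less, at 35.6 FPKM in P6 and 9.16 to 26.2 FPKM in the others. Its log2 ratio was 1.08, and it was 0.92 without P1 in the mean and 0.56 against P4 and P5 alone. The exception was *Jam2*, an adhesion molecule of the same family as *F11r*, which was at 3.25 FPKM in P6 and 7.96 to 17.8 FPKM in the others, whereas *F11r* was higher (log2 ratio 1.79). *Ocln*, the gene of occludin, did not exceed 0.0057 FPKM in any CD140a+ library and was listed at 0 in P6.

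Of 24 desmosome and cadherin genes, 12 were tested, 6 were higher and 1 was lower, with a median of 0.47 over all 24. That median was 0 against P4 and P5 alone and -0.02 against the highest of P1 to P5. The plakins periplakin (*Ppl*) and envoplakin (*Evpl*), which link keratin to the membrane, were at 113 and 10.9 FPKM in P6 against highest other levels of 47.9 and 1.11 FPKM. Plakophilin 2 (*Pkp2*) was at 5.0 FPKM in P6 and at most 0.386 FPKM elsewhere, so it was tested only through P6 and could not be called lower. P-cadherin (*Cdh3*) reached 4.62 FPKM, whereas E-cadherin (*Cdh1*) was at 0.0257 FPKM in P6, *Epcam* was at 0.465 FPKM and desmoplakin (*Dsp*) was at 0.515 FPKM, all under 1 FPKM. Cadherin-11 (*Cdh11*) was the most abundant cadherin of the list in P6 at 221 FPKM and lay within the range of the other libraries, which was 24.8 to 279 FPKM. The plakin and plakophilin genes were therefore called higher without E-cadherin or desmoplakin.

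Genes of apical polarity were higher in 10 of 24 tested members and lower in 1, with a median of 0.53 over all 32. The actin nucleator *Cobl*, which acts in microvilli, was at 0.0207, 0.0538, 0.0669, 0.818 and 0.522 FPKM in P1 to P5 and 15.8 FPKM in P6. *Pard6b* and *Prkcz*, which encode partners in the Par polarity complex, reached 29.3 and 13.9 FPKM in P6, against highest other levels of 4.31 and 2.9 FPKM in P4. Podocalyxin (*Podxl*), a negatively charged sialomucin of apical membranes, was at 2.77, 1.94, 7.05, 97.0 and 85.2 FPKM in P1 to P5 and 189.5 FPKM in P6. P4 and P5 lay below P6 for both genes, and much further below it for *Cobl* than for *Podxl*. Of 17 tested cilium genes 3 were higher (17.6%, against 12.0% of all tested genes), led by the ciliary microtubule gene *Tekt2* at 26.6 FPKM against at most 4.46 FPKM, and none was lower by the fold limit.

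Transcription factors separated P6 in both directions. Of 15 tested coelomic and epithelial factors, 8 were higher and 1 was lower, with a median of 0.09 over all 39 listed. Basonuclin 1 (*Bnc1*), a zinc finger protein of mesothelium and squamous epithelium, was at 0.34, 0.308, 1.37, 14.0 and 14.2 FPKM in P1 to P5 and 40.4 FPKM in P6. The SRY-related gene *Sox6*, the Kruppel-like gene *Klf5* and *Tbx18*, a T-box gene of the epicardium and other coelomic linings, reached 13.1, 8.28 and 5.1 FPKM in P6 and at most 2.98, 1.3 and 0.807 FPKM elsewhere. *Gata6* was highest in P6 at 80.9 FPKM but close to P5 at 80.3 FPKM and was not called. *Osr1*, a factor of intermediate and lateral mesoderm, was the single higher member of the fibroblast factor list, at 97.4, 84.7, 76.9, 69.9 and 42.9 FPKM in P1 to P5 and 221 FPKM in P6.

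The other fibroblast factors went down or were not called. Of 25 tested, 15 were lower, and the median over all 29 was -1.83. *Tcf21*, a basic helix-loop-helix factor of visceral fibroblasts, was at 177, 141, 119, 72.8 and 29.0 FPKM in P1 to P5 and 2.74 FPKM in P6. *Ebf1* was at 59.4, 49.1, 40.9, 27.8 and 10.3 FPKM in P1 to P5 and 1.65 FPKM in P6. Both fell at each step from P1 to P5 and were lowest in P6. *Prrx1*, a homeobox gene of limb and stromal mesenchyme, was at 3.2 FPKM in P6 against 29.3 to 52.7 FPKM. The mesenchymal factors *Snai1* (log2 ratio -3.25), *Twist1* (-1.67) and *Twist2* (-2.67) were also lower, while *Zeb1* (-0.57) and *Snai2* (-0.80) did not pass the fold limit.

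Basement membrane genes were divided. *Lamc3*, a laminin gamma chain, was at 0.48, 2.43, 2.78, 20.6 and 17.3 FPKM in P1 to P5 and 98.3 FPKM in P6. Nidogen 2 (*Nid2*), which links laminin to collagen IV, was at 15.5, 27.6, 22.6, 23.9 and 18.6 FPKM in P1 to P5 and 218 FPKM in P6, whereas its paralogue *Nid1* was at 564, 369, 276, 345 and 136 FPKM in P1 to P5 and 74.8 FPKM in P6. The nidogens were therefore called in opposite directions, and their levels crossed only in P6. The collagen IV chains split in the same way. *Col4a1* was at 714, 552, 477, 372 and 153 FPKM in P1 to P5 and 23.4 FPKM in P6, and *Col4a2*, its partner chain, had a log2 ratio of -4.34. *Col4a6* was higher at 31.4 FPKM, against 2.16 to 16.4 FPKM, and *Col18a1*, the gene of the basement membrane collagen that yields endostatin, was higher at 272 FPKM, against 74.3 to 168 FPKM.

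Of 27 tested laminin and integrin genes, 6 were higher and 8 lower, with a median over all 32 of -0.29. The laminin-binding integrins *Itga6* and *Itga3* were higher, at 3.3 and 44.0 FPKM, against at most 0.448 and 19.1 FPKM. The fibronectin receptor chain *Itga5* and the collagen receptor chain *Itga11* were lower, at 11.1 and 0.639 FPKM against lowest other levels of 41.8 and 2.92 FPKM. Interstitial collagens did not move as a block. Of 21 tested collagens, 4 were higher and 7 lower, and the median was -0.09 over all 24. *Col1a1* was at 1735 FPKM in P6 and 670.3 to 1618 FPKM elsewhere, and *Col1a2* was at 1153 FPKM and 871 to 1593 FPKM, neither called. *Col3a1* was listed at 0 in P2 and at 2926 FPKM in P6. *Col14a1*, a collagen of fibril surfaces, was lower at 6.83 FPKM against 40.1 to 334 FPKM. High collagen I RNA was thus shared by P6 and the CD140a+ fractions.

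Secreted signals were another group with large ratios. *Igfbp6*, an insulin-like growth factor binding protein with preference for IGF-II, was the most abundant higher gene, at 260.5, 331, 245, 904 and 750.5 FPKM in P1 to P5 and 2783 FPKM in P6. *Igfbp2* was at 0.432, 1.19, 3.04, 4.82 and 3.36 FPKM in P1 to P5 and 216 FPKM in P6. *Igfbp5* was at 83.8, 79.6, 77.9, 745 and 414 FPKM in P1 to P5 and 1020 FPKM in P6. The P4 level was close to that of P6 for *Igfbp5* and far below it for *Igfbp2*. Among 46 tested growth factor genes, 12 were higher and 18 were lower, with a median of -0.13 over all 58. *Fgf9*, a fibroblast growth factor made by mesothelium in the developing lung, was at 0.33, 0.379, 0.499, 0.563 and 0.458 FPKM in P1 to P5 and 9.51 FPKM in P6. *Fgf7* and *Fgf10*, which act on epithelial receptors, went the other way, at 0.317 and 2.16 FPKM in P6 against lowest other levels of 3.63 and 8.23 FPKM. The angiogenic ligand *Vegfa* was at 94.0, 161, 197, 93.5 and 142 FPKM in P1 to P5 and 14.7 FPKM in P6, and *Vegfc* was at 0.724 FPKM against 11.2 to 35.5 FPKM. The receptor gene *Kdr*, best known in endothelium, was in contrast higher, at 0.139, 0.931, 0.624, 3.3 and 1.46 FPKM in P1 to P5 and 46.9 FPKM in P6.

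Wnt pathway genes were called in both directions. Of 35 tested, 11 were higher and 8 lower, with a median of 0 over all 53. Beside *Wnt2b*, the ligand *Wnt9a* was higher at 48.1 FPKM, against 2.94 to 13.8 FPKM. *Lgr5*, a receptor for R-spondins, was at 0.0752, 0.0824, 0.145, 1.55 and 1.26 FPKM in P1 to P5 and 9.92 FPKM in P6. Its ligand *Rspo1* was at 231 FPKM in P6 against 42.8 to 93.8 FPKM, whereas the related *Rspo3* was at 2.84 FPKM against 13.5 to 57.4 FPKM. The secreted inhibitors *Sfrp1* and *Dkk2* were among the most reduced genes, with log2 ratios of -6.06 and -6.59. *Sfrp1* was at 78.9, 74.9, 54.3, 24.4 and 10.1 FPKM in P1 to P5 and 0.628 FPKM in P6. *Axin2*, a common target of canonical Wnt signals, was at 25.2 FPKM in P6 against 6.25 to 14.4 FPKM (log2 ratio 1.14, and 0.98 without P1 in the mean).

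Genes of the TGF-beta and BMP families were also divided, with 8 higher and 14 lower of 39 tested and a median of -0.34 over all 43. *Bmp4* was at 2.45, 9.05, 6.32, 1.47 and 1.02 FPKM in P1 to P5 and 36.4 FPKM in P6. In this gene the P4 and P5 levels were the lowest, unlike in the mesothelial markers. *Bmp7* was also higher, at 5.65 FPKM against at most 0.44 FPKM. *Gdf10*, a member of the BMP subfamily, was at 561, 502, 357, 185 and 66.6 FPKM in P1 to P5 and 3.13 FPKM in P6. *Ltbp1*, which holds latent TGF-beta in the matrix, was at 1.16 FPKM in P6 against 22.5 to 138 FPKM. Guidance molecules were higher in 11 and lower in 8 of 31 tested members (median over all 41, 0.04). *Efna1*, a ligand of Eph receptors, was at 22.7 FPKM in P6 and at most 1.51 FPKM elsewhere, and *Slit3*, a ligand of Robo receptors, was lower at 99.9 FPKM, against 170.4 to 438 FPKM.

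Genes of transport, defense and caveolae added to the higher set. *Ano1*, a calcium-activated chloride channel, was at 1.65, 32.0, 46.2, 40.6 and 50.3 FPKM in P1 to P5 and 196 FPKM in P6. *Atp1b1*, a beta subunit of the sodium pump, was at 9.95, 10.4, 13.3, 7.79 and 6.34 FPKM in P1 to P5 and 109.6 FPKM in P6. *Slc16a1*, a transporter of lactate and other monocarboxylates, was at 3.0, 3.91, 5.08, 15.0 and 11.3 FPKM in P1 to P5 and 68.4 FPKM in P6. Among these, P4 and P5 lay above all of P1 to P3 for *Slc16a1* only. In the water and ion transport list, 7 of 17 tested members were higher and 1 was lower (median over all 35, 0, and 0.41 without P5). The water channel *Aqp1*, often named in mesothelium, was at 12.6 FPKM in P6, below 23.4 FPKM in P4 and 27.0 FPKM in P5. *Slpi*, a secreted inhibitor of leukocyte proteases, was at 0.694, 1.34, 0.708, 18.4 and 10.8 FPKM in P1 to P5 and 127 FPKM in P6. In the antimicrobial list, 5 of 20 tested members were higher and 3 lower. The other 12 were not called, and the median log2 ratio was 0.39 over the tested members. Among all tested genes, 12.0% were higher and 9.25% lower. With so few members called, no direction was read from this list. The caveolae genes *Cav1* and *Sdpr* were chosen after their values were seen. They reached 609.5 and 424 FPKM in P6 against at most 213 and 71.2 FPKM, and 3 of 9 tested members of that list were higher.

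Complement and coagulation genes were lower more often than higher, in 9 and 6 of 31 tested members, with a median of -0.09 over all 41 found. *C2*, a protease of the classical pathway, was at 96.0, 118, 107, 182 and 169 FPKM in P1 to P5 and 610.4 FPKM in P6. Thrombomodulin (*Thbd*), an anticoagulant receptor present on mesothelium and endothelium, was at 527, 352, 309.7, 376 and 196 FPKM in P1 to P5 and 726 FPKM in P6, with a log2 ratio of 1.04 that was 0.89 without P5 in the mean. *C7*, a component of the terminal complex, was at 260, 473, 249, 73.6 and 54.2 FPKM in P1 to P5 and 9.18 FPKM in P6. *C3* was listed at 0 in all 6 libraries. The hyaluronan synthases *Has1* and *Has2* were lower, at 60.5 and 0.174 FPKM in P6 against lowest other levels of 151 and 5.13 FPKM, and so were *Tnfaip6* (log2 ratio -4.74) and *Ptx3* (-4.71), whose products cross-link hyaluronan. In the glycocalyx list as a whole, 3 members were higher and 7 lower of 20 tested.

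Retinoid genes are of interest because ALDH activity was part of the gate. The vitamin A receptor *Stra6* was at 0.452, 0.435, 0.719, 4.23 and 2.96 FPKM in P1 to P5 and 22.7 FPKM in P6, and the retinol dehydrogenase gene *Dhrs9* was at 29.4 FPKM in P6 against 0.315 to 9.11 FPKM. The retinal dehydrogenase genes differed from each other. *Aldh1a1* was at 41.4, 63.4, 64.7, 78.2 and 90.7 FPKM in P1 to P5 and 129 FPKM in P6. *Aldh1a2* was at 469, 78.8, 134, 284 and 145 FPKM in P1 to P5 and 209 FPKM in P6. *Aldh1a3* was at 19.5, 38.2, 23.3, 8.99 and 6.73 FPKM in P1 to P5 and 0.642 FPKM in P6. P6 was highest for *Aldh1a1*, below P1 and P4 but above the others for *Aldh1a2*, and lowest for *Aldh1a3*. Of 19 tested retinoid genes, 5 were higher and 4 lower, with a median of -0.06 over all 28. Of the genes behind the gates, *Pdgfra* was at 5.36 FPKM in P6 and 117 to 154 FPKM in P1 to P5. *Eng* was at 52.4, 52.2, 42.6, 0.359 and 0.231 FPKM in P1 to P5 and 0.728 FPKM in P6, so that P6 resembled the CD105- fractions in this gene, and its lower call rests on P1 to P3.

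Proliferation genes were often higher in P6 than in the mean of P1 to P5. Of 25 cell cycle genes, all tested, 13 were higher and 3 lower, with a median log2 ratio of 1.12. That median was 0.47 against P4 and P5 alone and 0.24 against the highest of P1 to P5. The summed level of the list was 272 FPKM in P6 and 235 FPKM in P4. *Mki67*, a marker of cycling cells, was at 1.56, 1.53, 1.19, 4.34 and 1.78 FPKM in P1 to P5 and 6.84 FPKM in P6. *Top2a*, a topoisomerase of dividing cells, was at 3.16, 2.93, 1.99, 7.8 and 2.62 FPKM in P1 to P5 and 10.2 FPKM in P6. P4 came next to P6 in both. The 3 lower members were the inhibitors *Cdkn1c*, *Cdkn2b* and *Cdkn2a*, the last at 0.0417 FPKM in P6 against 1.18 to 2.91 FPKM. *Cdkn1c* had a log2 ratio of -1.09, which was -0.84 without P2 in the mean and 0.24 against P4 and P5 alone. Interferon-stimulated genes were higher in 5 of 22 tested members (22.7%, against 12.0% of all tested genes) and lower in 0. *Oasl2*, an antiviral gene of this group, was at 115 FPKM against 21.0 to 64 FPKM. The median of the interferon list was 0.29, and it was -0.05 against P4 and P5 alone. The summed level of this list was lowest in P6, at 1890 FPKM against 2020 to 2530 FPKM in the others.

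Genes of fibroblast matrix were mostly lower. Of 36 fibroblast matrix and surface genes, all tested, 26 were lower and 2 higher, against 9.25% of all tested genes lower, with a median log2 ratio of -2.15. Dermatopontin (*Dpt*), a small protein that binds decorin and collagen, was at 1634, 1389, 986, 649.6 and 264 FPKM in P1 to P5 and 8.7 FPKM in P6. Lumican (*Lum*), a small proteoglycan of collagen fibrils, was at 345, 287, 229, 143 and 56.4 FPKM in P1 to P5 and 6.19 FPKM in P6. Periostin (*Postn*) was at 216, 77.8, 95.5, 115 and 63.2 FPKM in P1 to P5 and 2.31 FPKM in P6. P5 held the lowest level among the CD140a+ libraries in each of these genes and was still more than 9 times above P6. Not all matrix genes were called, since decorin (*Dcn*) was at 4350 FPKM in P6 and 4859 to 5871 FPKM in the others, and *Cd34* was at 428 FPKM, within the range of the others. The 2 higher members were fibulin 1 (*Fbln1*), at 363 FPKM against 103 to 236 FPKM, and *Dpp4*, a surface peptidase used to mark fibroblast progenitors, at 71.2 FPKM against 2.2 to 11.01 FPKM. *Gsn* was listed at 0 in P1 to P3, at 5350 FPKM in P4, 2092 FPKM in P5 and 328 FPKM in P6, so its lower call (log2 ratio -2.18) rests on P4 and P5, and the ratio was -0.67 without P4. *Fn1* was likewise listed at 0 in P1 and was at 187 FPKM in P6, against 887 to 1516 FPKM in P2 to P5.

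**Figure D3:**
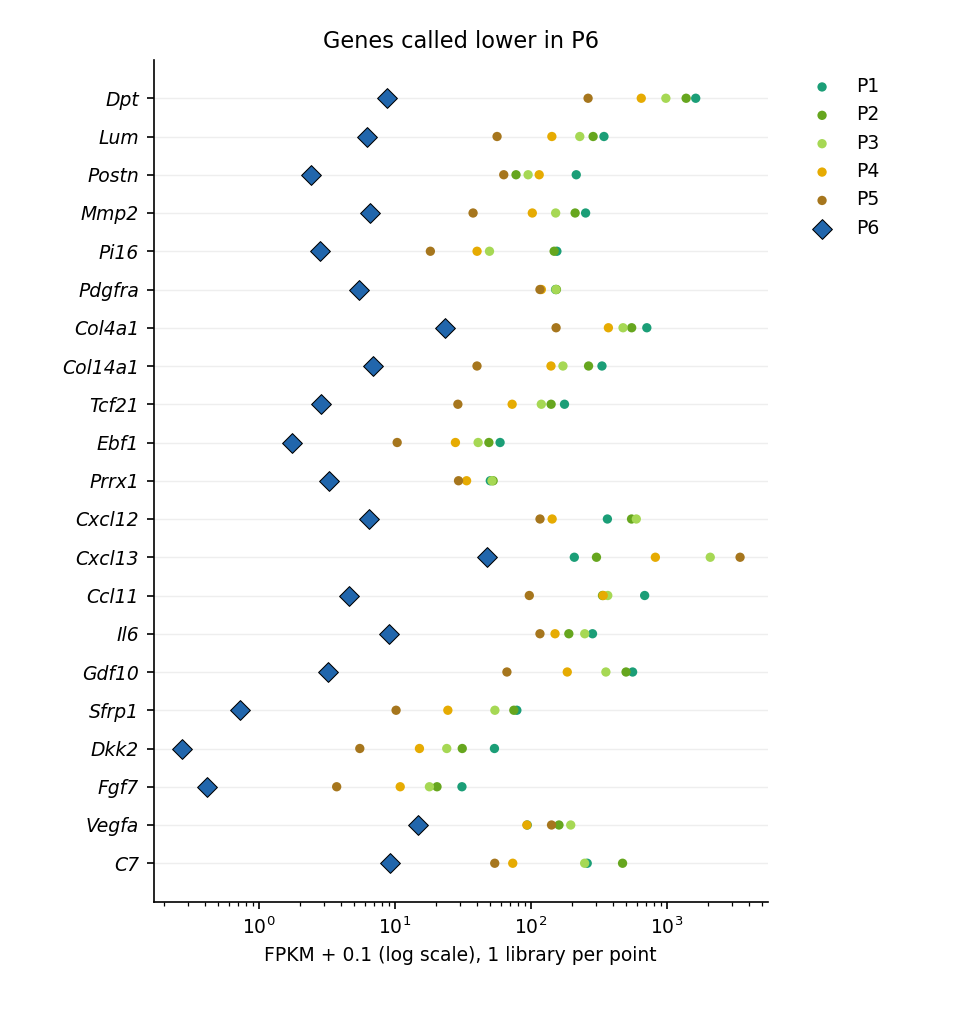
FPKM + 0.1 (horizontal, log scale) of 21 genes called lower in P6, with 1 point for each library and P6 as a blue diamond. P6 is the leftmost library for every gene, and P5 is the nearest to it for most of them.

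Proteases that remodel matrix were lower with it. Of 31 tested protease and inhibitor genes, 18 were lower and 1 was higher, with a median of -1.07 over all 36. *Mmp2*, a gelatinase, was at 253, 212, 152, 102 and 37.5 FPKM in P1 to P5 and 6.52 FPKM in P6. *Adamts4*, an aggrecan-cleaving protease, was at 1.59 FPKM in P6 against 21.1 to 67.6 FPKM. Cathepsin K (*Ctsk*), a collagen-degrading lysosomal protease, was at 2.72 FPKM against 16.8 to 96.6 FPKM. The general lysosomal protease *Ctsd* was not called, at 224 FPKM in P6 and 166 to 193 FPKM in the others.

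Chemokines and cytokines formed the next large lower group, with 16 lower and 4 higher of 32 tested and a median of -0.63 over all 45. *Cxcl12*, which recruits leukocytes that carry CXCR4, was at 366, 551, 597, 144 and 117 FPKM in P1 to P5 and 6.36 FPKM in P6. *Cxcl13*, which attracts B cells, was at 209, 304, 2090, 825 and 3464 FPKM in P1 to P5 and 47.4 FPKM in P6. *Ccl11*, an attractant of eosinophils, was at 688, 337, 368, 341 and 97.4 FPKM in P1 to P5 and 4.5 FPKM in P6. The median of the list was -0.39 when P5 was left out of the mean. P6 was the lowest library for all 3 of these chemokines, although the order among P1 to P5 differed, with *Cxcl12* highest in P3, *Cxcl13* in P5 and *Ccl11* in P1. *Ccl19*, a ligand of CCR7, was at 3.6 FPKM in P6 against 39.8 to 204 FPKM, and *Il6* was at 8.94 FPKM against 117 to 284 FPKM. The higher members were *Il18*, *Ccl5*, *Il7* and *Kitl*, of which *Il18*, an activator of interferon gamma, was at 29.2 FPKM against 4.09 to 13.1 FPKM. The ligand of KIT, *Kitl*, was at 7.99, 5.27, 8.91, 25.9 and 32.2 FPKM in P1 to P5 and 34.5 FPKM in P6. P5 and P6 were therefore close for *Kitl*, and its log2 ratio of 1.10 was 0.88 without P2 in the mean. That of *Il7*, a survival factor of lymphocytes, was 1.10, and 0.89 without P1.

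Vasoactive genes were lower in 13 and higher in 3 of 25 tested members (median over all 35, -0.44, which was -0.09 without P1 and -0.20 without P5 in the mean). Adrenomedullin (*Adm*), a vasodilator peptide, was at 259, 105, 93.2, 104 and 24.96 FPKM in P1 to P5 and 2.66 FPKM in P6. *Ace*, the angiotensin-converting enzyme, was at 3.28 FPKM in P6 against 27.8 to 345 FPKM. *Ptgis*, which makes prostacyclin, was among the higher members at 94.5, 96.2, 119, 339 and 369 FPKM in P1 to P5 and 421 FPKM in P6. Its log2 ratio was 1.05, and 0.87 without P1 or without P2 in the mean. Outside the lists, the strongest lower genes by the ratio rule included *Pla1a*, a phospholipase, at 219.9, 99.1, 67.6, 111 and 21.9 FPKM in P1 to P5 and 0.732 FPKM in P6. *Penk*, the precursor of enkephalins, was at 683, 736, 672, 299 and 368 FPKM in P1 to P5 and 9.33 FPKM in P6. *Dpep1*, a membrane dipeptidase, was at 3.7 FPKM against 67.9 to 528 FPKM. The alcohol dehydrogenase *Adh1* was at 1.67 FPKM against 25.9 to 169 FPKM. The same rule named *H2-Q6*, a member of a family of near-identical genes, and *Serbp1*, which was listed at 0 in 4 libraries including P6, so the values of both are uncertain.

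Several lists held no called gene. None of the 38 respiratory chain genes, 35 cytoplasmic ribosomal protein genes or 16 tested housekeeping genes was called in either direction. Their median log2 ratios were -0.01, -0.41 and -0.04, respectively, and P6 was the lowest library for 29 of the ribosomal genes. *Actb* was at 888 FPKM in P6 and 885 to 947 FPKM in the others. *Gapdh* was at 270.4 FPKM and 214 to 326 FPKM. Immediate-early genes, which respond to dissociation of tissue, were higher in 2 and lower in 2 of 25. *Fos* was not called and was at 2317 FPKM in P6 and 1761 to 2102 FPKM elsewhere. Beyond these, antigen presentation genes were higher in 1 and lower in 0 of 16 tested, Hedgehog and Notch genes were lower in 4 of 17 with none higher, and Hox genes were higher in 4 and lower in 3 of 17. Genes of glycolysis were higher in 5 of 22 and lower in none. *Myc* was one of the lower immediate-early members, at 22.8 FPKM against 69.9 to 222 FPKM.

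**Figure D4:**
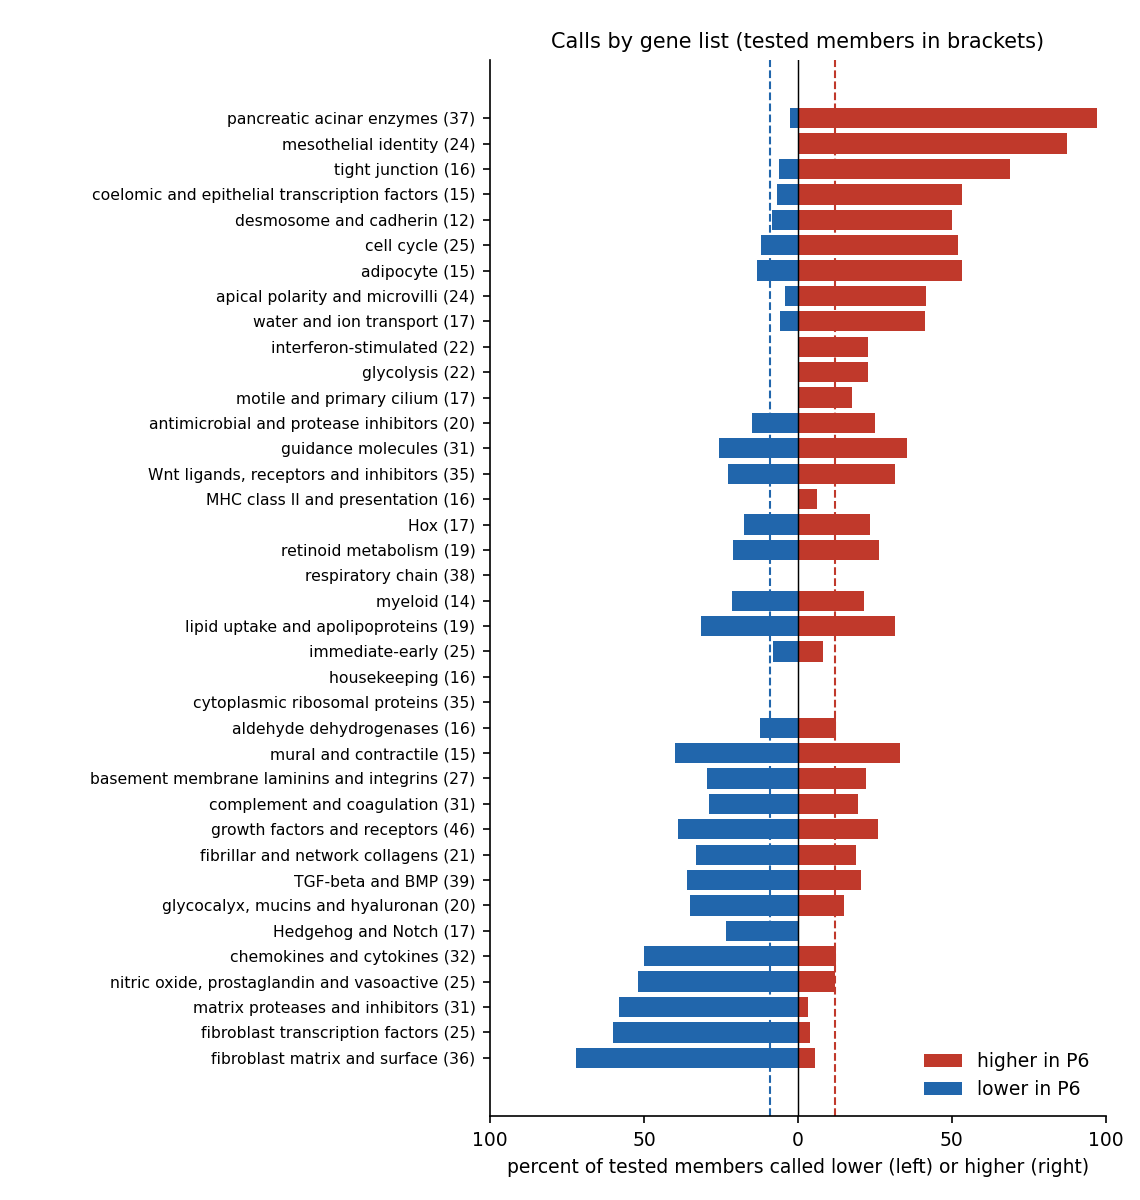
Percent of the tested members of each gene list called higher (red, right) or lower (blue, left) in P6, for lists with at least 10 tested members, with the number tested in brackets. Dashed lines mark the 12.0% and 9.25% of all tested genes called in each direction; acinar enzyme and mesothelial lists reach furthest to the right and fibroblast matrix furthest to the left.

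Genes that mark other cell types also moved, and their part in the results was not tested. Of 20 adipocyte genes, 15 were tested, 8 were higher and 2 lower, with the summed level at 661 FPKM in P6 and 288 to 417 FPKM in the others. *Cfd*, the gene of adipsin, a complement protease secreted by fat cells, was at 0.337, 0.314, 0.205, 0.0237 and 0.0673 FPKM in P1 to P5 and 114 FPKM in P6. Adiponectin (*Adipoq*), a hormone of fat cells, was at 0.508, 0.785, 0.128, 0.0828 and 0.126 FPKM in P1 to P5 and 14.7 FPKM in P6. *Cidec*, a coat protein of lipid droplets, was at 0.174, 0.0431, 0.0439, 0.0227 and 0.0108 FPKM in P1 to P5 and 8.72 FPKM in P6. In these genes P4 and P5 were not intermediate, and P4 or P5 was the lowest library. All of them were under 1 FPKM in P1 to P5, so they were tested only through P6 and could not be called lower. The adipogenic factors *Pparg* and *Cebpa* were lower in P6 at 1.43 and 10.4 FPKM, against 2.3 to 12.0 and 7.86 to 35.2 FPKM, and P5 lay below P6 for *Cebpa*. Leptin (*Lep*) was listed at 0 in P6.

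In several other genes with the largest ratios, P4 and P5 were likewise no closer to P6 than P1 to P3 were. *Pon1*, an esterase of lipoproteins, was at 0.0143, 0.0864, 0, 0.039 and 0.0247 FPKM in P1 to P5 and 54.8 FPKM in P6. *Cyp2e1*, a cytochrome that oxidizes ethanol and ketone bodies, was at 0.11, 0.105, 0.209, 0.0222 and 0.0896 FPKM in P1 to P5 and 57.2 FPKM in P6. *Thrsp*, a regulator of lipid synthesis, was at 21.5 FPKM in P6 and at most 0.735 FPKM elsewhere. *Cdo1*, a cysteine dioxygenase, was at 28.2 FPKM in P6 and 0.341 to 1.05 FPKM elsewhere. *Pon1* and *Cyp2e1* are abundant in liver. Of 24 liver genes, listed after the values were seen, 8 were tested, 4 were higher and 1 was lower, and the liver-defining genes *Alb* and *Ttr* were listed at 0 in P6 and did not exceed 0.0536 FPKM in any library. In contrast, *Spock3*, an extracellular proteoglycan, was at 0.149, 0.0729, 0.0627, 1.65 and 0.622 FPKM in P1 to P5 and 54.7 FPKM in P6, with P4 next, as in the keratins. *Perp*, a desmosomal membrane protein, was at 14.8 FPKM in P6 against at most 0.422 FPKM, also with P4 next. *Anxa8*, an annexin, was at 0.236, 0.32, 0.148, 0.307 and 0.126 FPKM in P1 to P5 and 11.4 FPKM in P6. For *Anxa8* P2 came next to P6, and P5 was lowest.

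Endothelial genes were few. Of 20 listed, 5 were tested, 3 were higher and 2 lower, and the summed level was 119 FPKM in P6 and 17.9 to 42.9 FPKM in the others. The defining genes *Pecam1* and *Cdh5* were at 0.992 and 0.343 FPKM in P6, while *Kdr* and *Esam* accounted for most of the sum. Under 1 FPKM in P6, *Pecam1* and *Cdh5* could not be called higher, although their log2 ratios over the mean were about 1 or more. Against P1 to P3 alone these ratios were 0.91 and 0.96, respectively. Mural and contractile genes were higher in 5 and lower in 6 of 15 tested, with a summed level of 350 FPKM in P6 and 186 to 492 FPKM in the others. Smooth muscle actin (*Acta2*) was at 35.0 FPKM in P6 against 0.655 to 10.4 FPKM, whereas the intermediate filament gene *Des* was at 37.1 FPKM against 57.2 to 198 FPKM. Myeloid genes were higher in 3 and lower in 3 of 14 tested, at a summed 234 FPKM in P6 and 57.9 to 199 FPKM in the others. The CSF-1 receptor *Csf1r* was at 11.6 FPKM against at most 1.66 FPKM, and the leukocyte antigen *Ptprc*, which the CD45- gate excludes, was at 0.755 FPKM. Of 2 lymphoid genes tested none was called, and *Cd3e*, a chain of the T cell receptor complex, was at 0.0657 FPKM in P6. The summed erythroid and platelet level was 242 FPKM in P6 and 63.1 to 200 FPKM in the others, with 4 higher and 1 lower of 7 tested. Reads of the near-identical globin copies cannot be assigned with certainty to a copy. Among glial and neuronal genes 1 was higher, *Mbp*, at 44.7 FPKM against 1.41 to 21.4 FPKM, and 4 were lower of 5 tested, including *S100b* at 0.0185 FPKM.

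RNA of pancreatic enzymes was set apart from the other higher genes. Acinar cells of the pancreas, an organ that adjoins the omentum, make digestive enzymes at very high levels. Of 47 acinar genes found, 37 were tested and 36 were higher, with a median log2 ratio of 2.3 over all 47 that was 3.83 without P4 in the mean. That median was 1.26 against P4 and P5 alone and 0.45 against the highest of P1 to P5. *Amy1*, an amylase gene that is active in many tissues, was lower at 2.73 FPKM against 3.35 to 13.9 FPKM. The list summed to 19.6, 323, 43.8, 1700 and 201 FPKM in P1 to P5 and 2470 FPKM in P6, which was 0.641% of all FPKM of P6 and 0.419% of those of P4. Pancreatic amylase *Amy2a5* was at 0.782, 75.8, 8.01, 433 and 53.8 FPKM in P1 to P5 and 707 FPKM in P6. Chymotrypsinogen B (*Ctrb1*) was at 0.191, 38.8, 2.4, 208 and 19.4 FPKM in P1 to P5 and 273 FPKM in P6. The elastase gene *Cela2a* was at 0.632, 28.5, 3.06, 157 and 16.8 FPKM in P1 to P5 and 219 FPKM in P6. Without P4 in the mean, their log2 ratios of 2.63, 2.34 and 2.41 were 4.35, 4.15 and 4.15, respectively. All 3 had the same order of libraries, P6, P4, P2, P5, P3 and P1 from highest to lowest, and this order held in 29 of the 36 higher acinar genes. The amylase and trypsin genes have close copies, among which the counting could split reads.

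On the scale of FPKM + 0.1, the P4 level of the 36 acinar genes was 0.327 to 1.26 times that of P6, with a median of 0.71. Over the 21 higher mesothelial genes, P4 was 0.0168 to 0.981 times P6, with a median of 0.336. P2 held a median of 0.14 of the P6 level for acinar genes and 0.0101 for mesothelial genes, and P5 held 0.085 and 0.188, respectively. The order of P2 and P5 was therefore opposite in these lists. The pancreatic factor *Ptf1a* was at 0.248 FPKM in P6, under 1 FPKM, and the islet hormone genes *Ins1*, *Ins2* and *Gcg* were listed at 0 in P6. Without the acinar list, 1481 genes were higher, and rescaling the libraries with these genes left out gave 1585 higher and 1127 lower genes. Acinar RNA moved with P6 and P4, and its part in the other results was not tested.

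**Figure D5:**
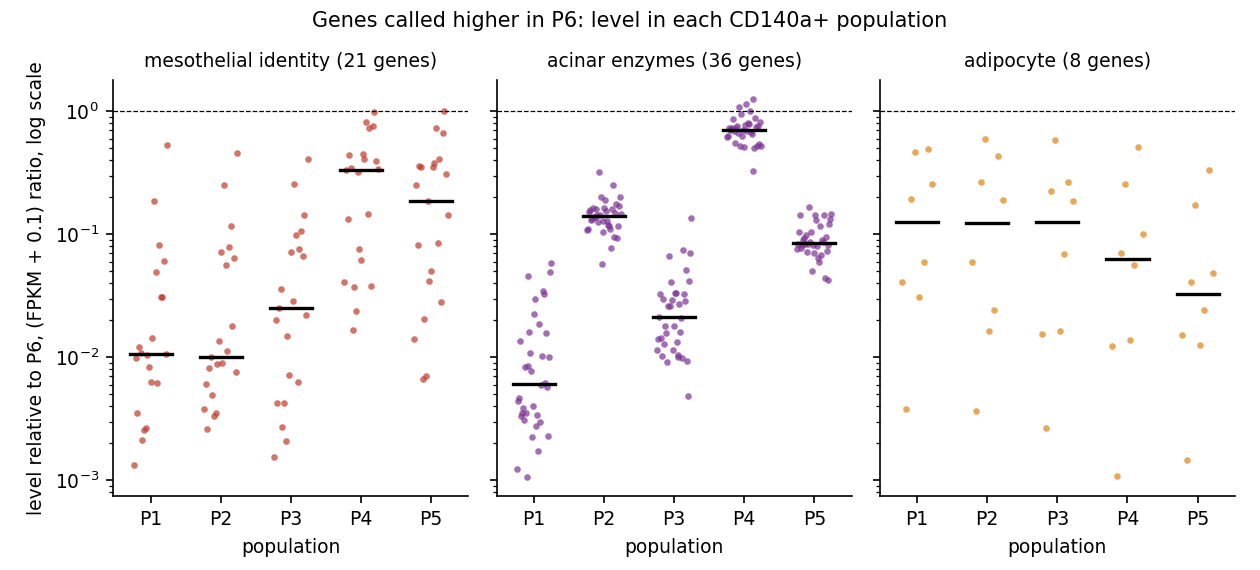
Level of each gene in P1 to P5 relative to P6 (ratio of FPKM + 0.1, log scale) for the genes called higher in the mesothelial (21), acinar enzyme (36) and adipocyte (8) lists, with 1 point for each gene, black bars at the median and the dashed line at the P6 level. Acinar genes lie near P6 in P4 and well below it in the other libraries, mesothelial genes in P4 range from 0.0168 to 0.981 times P6, and adipocyte genes are lowest in P5 by the median.

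The distance of P6 from the other libraries depended on the library. Against P1 alone, 2340 genes were higher and 1210 lower in P6 by the same limits, and against P4 alone the numbers were 1138 and 899, respectively. Against P5 alone they were 1299 and 855. Among the 1517 genes called higher against the mean, the highest CD140a+ library was P4 in 630 and P5 in 525. P4 and P5 were both above all of P1 to P3 in 59.1% of the higher genes, against 38.5% of all tested genes. Among the 1168 lower genes, P4 and P5 were both below all of P1 to P3 in 54.3%, against 17.2% of all tested genes. The level fell at each step from P1 to P5 in 22.1% of the lower genes and in 5.54% of all tested genes. Outside the acinar list, P4 held less than 0.1 times the P6 level in 197 higher genes, among them *Krt7*, *Krt8*, *Krt18*, *Msln* and *Wnt2b*, and 0.5 times or more in 433 genes.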

How the data were processed

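RNA-seq was done on 6 sorted fractions of omental stroma, 1 library each. Per the submitters' processing notes, the authors aligned reads to mm10 with TopHat2 2.0.7 and computed FPKM with Cufflinks 2.1.1. The deposited FPKM values were used as they are. The authors' fragment counts were not used here, so precision could not be given per value, and depth was only estimated from the spacing of low FPKM values in single-transcript genes. Every sample's group came from its label, and 0 columns of unmapped samples were present.

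Rows that shared a symbol were summed. Ratios were log2((P6 + 0.1)/(mean of P1 to P5 + 0.1)), with a minimum of 1 FPKM and a fold limit of 2. No test was run, because each fraction has 1 library. The P1 to P5 libraries are different fractions and not replicates of each other.

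Genes were named when they belonged to a list of genes by function, were among the 25 largest or 25 smallest ratios at 10 FPKM or more (small RNAs left out, and pancreatic genes left out of the largest), or were among the 10 most abundant genes called in each direction. The members and lists were chosen with earlier results of these data known, and the caveola and liver lists after seeing the values. Calculations were done in Python 3.11.15 (pandas 2.3.3, numpy 2.4.6, scipy 1.17.1), and figures were drawn with matplotlib 3.10.9. The code for the calls was run on simulated reads with counting noise only, the same mean in P1 to P5 and changes of 4 times in P6. That run left out the differences among P1 to P5, so it does not show how reliable the calls are. Upstream bases came from RefSeq in GRCm38.p6. Alternatives for the added constant, scaling, comparator, minimum and fold limit were tried. Some genes are not reported here.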

Additional observations from a re-analysis of the deposited data

How the results depend on the processing

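The counts of 1517 higher and 1168 lower genes moved by over 1.5 times with a minimum of 5 FPKM (890 and 760), with a fold limit of 4 (607 and 656), with a fold limit of 1.5 for the higher genes (2532), and where P6 had to pass the highest or lowest of P1 to P5 (807 and 434). Leaving out each CD140a+ library in turn gave 1389 to 1665 higher and 1117 to 1216 lower genes. Quantile normalization gave 1251 higher and 1345 lower genes. With no minimum, 2154 and 1728 genes were called, and leaving out genes listed at 0 in some library, an alternative chosen after seeing the data, gave 1483 and 1073. The median ratio of the tested genes lay between -0.13 and 0.15 in all settings. Among named genes, *Gsn* reversed to 11.68 against the median of P1 to P5 and against P1 to P3, where it is listed at 0, while against P4 and P5 alone *Cdkn1c* reversed to 0.24 and *Eng* to 1.07. *Ezr* reversed to -0.01 against the highest of P1 to P5. Against P4 and P5 alone, other called genes fell under the fold limit. Among the higher genes these log2 ratios included 0.25 for *Kitl* and *Ptgis*, 0.51 for *Il7*, 0.56 for *Tjp1* and 0.78 for *Col18a1*. They were 0.80 for *F11r*, 0.82 for *Igfbp5*, 0.85 for *Oasl2*, 0.91 for *Axin2* and 0.96 for *Top2a*. Among the lower genes they were -0.17 for *Cebpa* and -0.77 for *Amy1*. Without P4, the fold of several genes, before the log2 was taken, moved by over 1.5 times. Their log2 ratios became 3.89 for *Cdh3*, 3.85 for *Cldn15*, 4.37 for *Esam*, 5.63 for *Evpl*, 2.64 for *Igfbp5* and 5.73 for *Kdr*. They became 8.02 for *Krt18*, 4.17 for *Krt19*, 7.92 for *Krt7*, 7.03 for *Krt8*, 4.07 for *Lamc3* and 3.31 for *Lrrn4*. They were 4.82 for *Pard6b*, 2.96 for *Podxl*, 5.19 for *Slpi*, 7.39 for *Spock3*, 4.20 for *Stra6* and 3.79 for *Upk3b*. The ratio of *Ptx3* was -3.99 without P1, that of *Cxcl13* was -4.17 without P5, and that of *Serbp1* was -6.26 without P1 and -6.20 without P2. No paired analysis was possible because each fraction has 1 library and no test was run. The cause of the moved values was not tested.

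With 1 FPKM added in place of 0.1, median log2 ratios became 1.26 (keratins), -0.80 (fibroblast factors), -0.29 (chemokines) and -0.28 (vasoactive). With 0.01 FPKM added they became 1.12 (tight junction), -0.20 (retinoid metabolism), -0.29 (complement) and -0.57 (vasoactive). Scaling by the median of ratios gave -0.08 (respiratory chain). Quantile normalization gave 0.02 (retinoid metabolism), 0.14 (Wnt), -0.66 (vasoactive), -0.21 (ribosomal) and 0.07 (housekeeping). Against the median of P1 to P5 they were 0.63 (water and ion transport), 0.05 (retinoid metabolism), 0.01 (growth factors) and -0.11 (vasoactive). Against the highest of P1 to P5, which lowers every ratio, they were 1.65 (keratins), 0.35 (tight junction), -0.02 (desmosome and cadherin), 0.23 (apical polarity), -0.63 (collagens), -2.41 (fibroblast factors), -0.12 (coelomic factors), -1.08 (laminins and integrins), -0.35 (retinoid metabolism), -0.39 (complement), -1.67 (chemokines), -0.16 (Wnt), -0.75 (TGF-beta and BMP), -0.40 (growth factors), -1.35 (vasoactive), -0.18 (interferon-stimulated), 0.24 (cell cycle), -0.16 (respiratory chain), -0.23 (housekeeping), -1.36 (matrix proteases) and -0.26 (guidance molecules). Over members with at least 1 FPKM they were 1.58 (tight junction), 1.02 (desmosome and cadherin), 1.14 (coelomic factors), 0.72 (water and ion transport), 0.18 (retinoid metabolism), -0.50 (complement), -1.17 (chemokines), 0.09 (Wnt), -0.34 (growth factors), -1.11 (vasoactive), -1.49 (matrix proteases) and 0.41 (guidance molecules). Against P1 to P3 alone, an alternative chosen after seeing the data, they were 5.71 (mesothelial identity), 0.91 (tight junction), 0.76 (apical polarity), 0.73 (water and ion transport), -0.25 (complement), -0.26 (vasoactive) and 0.14 (guidance molecules). Against P4 and P5 alone, also chosen after seeing the data, they were 1.98 (keratins), 0 (desmosome and cadherin), -1.02 (fibroblast matrix), -0.93 (fibroblast factors), 0 (coelomic factors), 0.09 (retinoid metabolism), -0.85 (chemokines), 0.04 (growth factors), -0.19 (vasoactive), 0.47 (cell cycle) and -0.10 (respiratory chain). Leaving out 1 library moved medians within -0.02 to 0.10 (coelomic factors), -0.12 to 0.07 (retinoid metabolism), -0.81 to -0.39 (chemokines), -0.48 to -0.09 (vasoactive), -0.02 to 0.16 (guidance molecules) and 0 to 0.41 (water and ion transport). The mesothelial median was 4.79 against the median of P1 to P5, 1.35 against the highest of them, 1.52 against P4 and P5, and 2.42 to 3.31 with 1 library left out. In all, 337 of 416 values over 26 lists moved by less than the SD of the median taken against each CD140a+ library. That SD is itself large where P1 to P5 differ, at 2.37 for the mesothelial and 2.34 for the acinar list. Large moves in these lists therefore stayed under it, and the tally does not show that they are stable.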
